A study of Mus musculus with 4 samples.

Results

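The interferon response genes examined here are 37 genes that interferons induce, or that carry the interferon signal, of the 23951 genes in the deposited table. They were chosen by name, from their known roles but with earlier results of these data known, and each had a row of its own in the table. The cells were mammary tumor cells of female MMTV-PyMT mice, whose mammary epithelium expresses the polyoma middle T oncogene, and all mice also carried the Rosa26-Stop-YFP (R26Y) reporter, which makes yellow fluorescent protein once Cre has cut out its stop. Cre came in every mouse from an adenovirus driven by the Krt8 promoter (Ad-K8-Cre), injected into the mammary ducts, and YFP+ cells were sorted 2 to 3 months later. There were 2 libraries labelled knockout, from mice with conditional Lsd1 alleles (Lsd1L/L), and 2 labelled wild-type, from mice without them (Lsd1+/+). The comparison asks how RNA levels differ with loss of LSD1, a histone demethylase encoded by Kdm1a. The labels give neither the age of the mice nor whether each library came from its own animal, so the p-values speak only of variation among these 4 libraries, which may be technical.

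Interferons are secreted proteins that warn cells of infection or damage. Type I interferons act through the receptor chains Ifnar1 and Ifnar2 and the factor ISGF3, which includes STAT2 and IRF9 and binds interferon-stimulated response elements in front of antiviral genes such as Mx1, Isg15 and the Oas and Ifit genes. Type II interferon, made mostly by T and NK cells, acts through Ifngr1 and Ifngr2 and on gamma-activated sites in front of Irf1 and of genes for guanylate-binding and immunity-related GTPases. In tumors both the cancer cells and the blood cells among them can respond.

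Values are FPKM, reads per length of transcript and per library total, and a difference is the mean log2(FPKM + 1) of the libraries labelled knockout minus that of the wild-type libraries. Genes that reached 1 FPKM in 2 or more libraries, 11138 in all, were tested together with limma, and a gene was called at a Benjamini-Hochberg adjusted p under 0.05. The libraries were of similar depth: by the steps between the lowest values, relative to the second library labelled knockout, the first labelled knockout had 0.928 times its reads and the wild-type libraries 1.03 and 0.850 times. The absolute depth was roughly 22700000 reads, an estimate from 110 genes with a single transcript. Kdm1a did not separate the labels, with 20.2 and 22.8 FPKM in the libraries labelled knockout, against 52.5 and 22.9 FPKM in wild-type (difference -0.67, SE 0.46; limma, adjusted p = 0.34), and its value covers deleted and retained exons alike. On the samples titled knockout the tissue label reads Lsd1+/+ and the genotype label reads knockout, so these are called the libraries labelled knockout throughout.

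The sorted cells were labelled as tumor epithelium, and marker lists of the cell types such a sort could hold differed widely between libraries. All 8 epithelial markers, among them Epcam, Krt8 and Krt18, were detected in every library, with a summed level of 721 and 744 FPKM in the libraries labelled knockout, against 12198 and 2712 FPKM in the wild-type libraries. All 7 T cell markers were above both wild-type libraries in both libraries labelled knockout, with sums of 1314 and 1238 FPKM against 12.8 and 50.2 FPKM in wild-type. The 5 B cell markers summed to 515 and 504 FPKM against 3.90 and 18.0 FPKM in wild-type, where Pax5 was listed at 0 in both libraries. The 5 NK cell markers summed to 79.4 and 79.6 FPKM against 0.663 and 4.09 FPKM in wild-type, where Ncr1 was listed at 0 in both libraries. The 6 neutrophil markers summed to 1162 and 1252 FPKM against 277 and 554 FPKM in wild-type, most of it S100a8 and S100a9. Of the 6, 5 were above wild-type in both libraries labelled knockout. Csf3r overlapped, at 3.61 and 5.03 FPKM against 0.551 and 12.5 FPKM in wild-type. The 5 plasmacytoid dendritic cell markers summed to 15.4 and 14.6 FPKM against 1.31 and 3.85 FPKM in wild-type. The 7 macrophage markers stood out in the second wild-type library alone, with 218 and 207 FPKM in the libraries labelled knockout, against 166 and 4525 FPKM in wild-type. The endothelial and fibroblast sums were also highest in the second wild-type library, at 164 and 288 FPKM. In bulk samples like these, a change in the number of cells of a type cannot be told apart from a change in RNA per cell. The part these cells play in the interferon gene results was not tested.

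**Figure D1:**
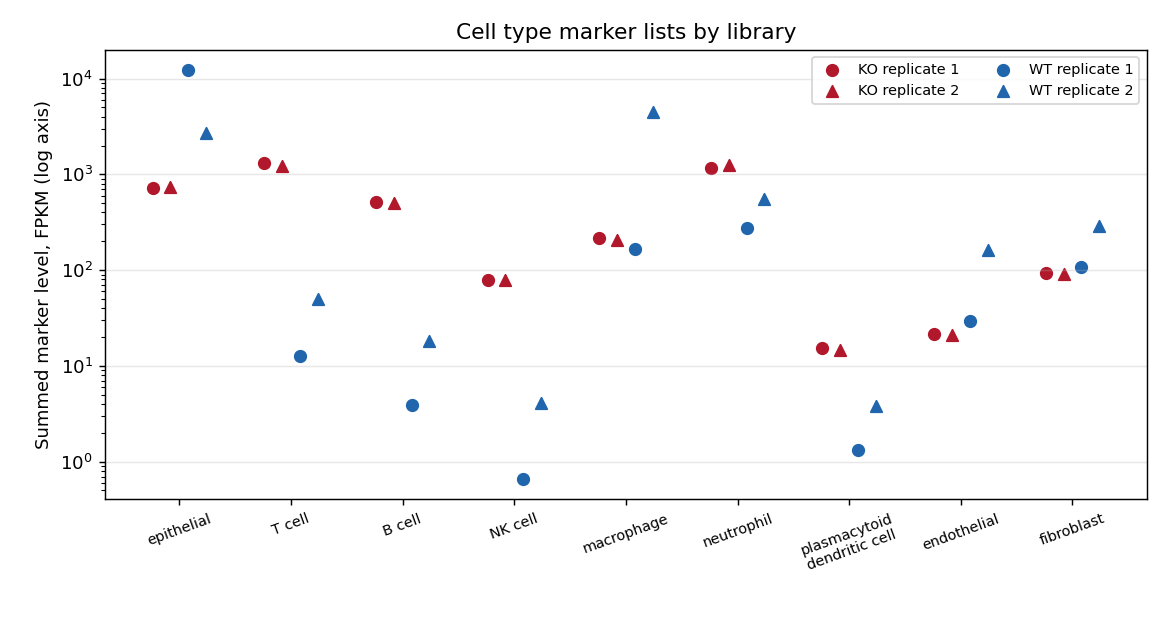
Summed FPKM (log axis) of each cell type marker list in the libraries labelled knockout (KO, red) and wild-type (WT, blue), with 1 point per library. The lymphocyte, neutrophil and plasmacytoid dendritic cell lists are higher in both KO libraries. The epithelial list is highest in WT replicate 1 at 12198 FPKM, and the macrophage list is highest in WT replicate 2 at 4525 FPKM.

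As a whole the interferon response genes did not move one way. Of the 37 genes 36 were tested, of which 4 rose and 2 fell in the libraries labelled knockout. That is 16.7% called, beside 16.5% of all tested genes (9.51% higher and 6.99% lower), so the share called says nothing particular about these genes. Their median difference was -0.23, beside 0.08 for all tested genes. Its sign turned at a filter of 5 FPKM, where 29 of the genes were tested and the median was 0.16, beside 0.19 for all genes tested there. Both libraries labelled knockout lay above both wild-type libraries for 13 of the 36 genes (36.1%, beside 39.3% of all tested genes) and below them for 15 (41.7%, beside 32.1%). The remaining 8 overlapped. Grouped by role, signal-carrying genes and effector genes lay on opposite sides: 8 of the 9 receptor and transcription factor genes were above wild-type, and 11 of the 16 tested OAS, antiviral effector and ISG15 genes were below it. The roles were assigned with results of these data known, so the contrast between them is a description. It does not extend to the type I targets read outside the 37 genes, where 25 of 39 tested were above wild-type and 9 below.

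**Figure D2:**
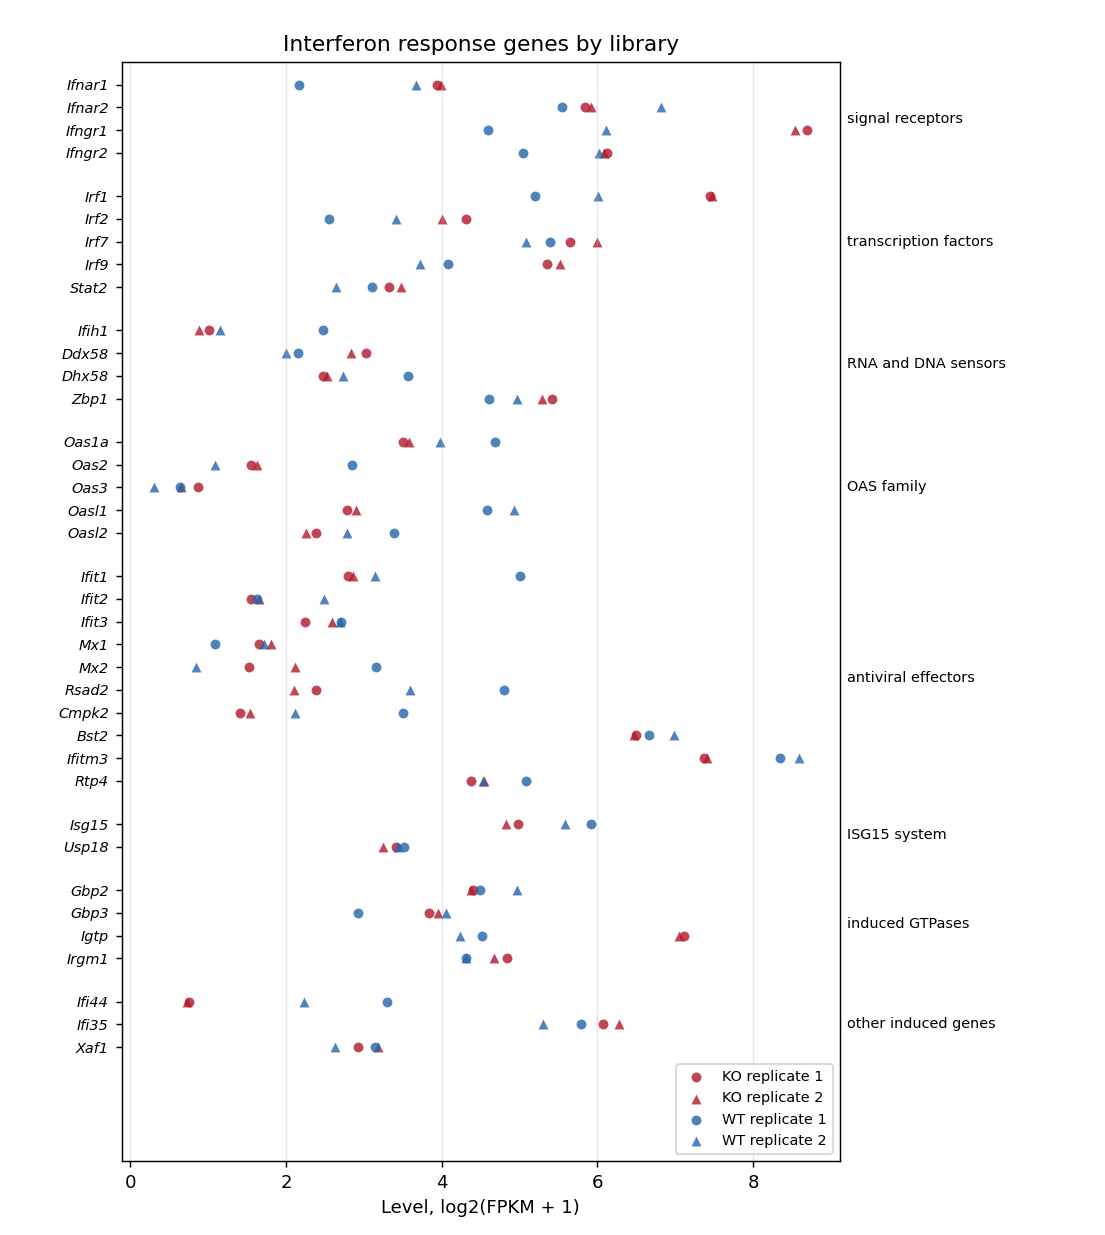
Level of each of the 37 interferon response genes, as log2(FPKM + 1), in the 2 libraries labelled knockout (KO, red) and the 2 wild-type libraries (WT, blue), grouped by role. The red points lie to the right of the blue points for all 5 transcription factor genes and to the left for 3 of the 5 OAS genes.

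Levels spanned a wide range. By mean FPKM over the 4 libraries the order began with Ifitm3 (261 FPKM), Ifngr1 (218 FPKM), Irf1 (112 FPKM) and Bst2 (100.4 FPKM), and ended with Mx1 (2.02 FPKM), Ifih1 (1.91 FPKM) and Oas3 (0.551 FPKM). Ifitm3 and Ifngr1 changed places between groups, with Ifngr1 the higher in both libraries labelled knockout and Ifitm3 the higher in both wild-type libraries. Oas3, an oligoadenylate synthetase, was the single gene left out of the test, with 0.833 and 0.575 FPKM in the libraries labelled knockout, against 0.560 and 0.237 FPKM in wild-type.

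Among the receptor chains, Ifngr1, the ligand-binding chain of the type II receptor, had 413 and 369 FPKM in the libraries labelled knockout, against 23.2 and 68.0 FPKM in the wild-type libraries. The groups were far apart, although the wild-type pair itself differed widely. The mean was 8.58-fold higher and the difference 3.26 (SE 0.57; limma, adjusted p = 0.041). Ifngr2, the signalling chain of the same receptor, was at 68.7 and 67.1 FPKM against 31.96 and 63.9 FPKM in wild-type, so that the second wild-type library lay close below the libraries labelled knockout (adjusted p = 0.33). Ifnar1 was likewise at 14.3 and 14.9 FPKM against 3.51 and 11.8 FPKM in wild-type (adjusted p = 0.26). Ifnar2 was at 56.3 and 59.6 FPKM, between the wild-type libraries at 45.6 and 111.6 FPKM (adjusted p = 0.68). In all 4 receptor genes the second wild-type library, which had the high macrophage sum, was above the first.

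The 5 transcription factor genes were all above wild-type in both libraries labelled knockout, as were 39.3% of all tested genes. Of the 5, 2 passed, beside 9.51% of all tested genes called higher. Irf1, an activator at the promoters of type II targets, was at 173 and 177 FPKM against 35.7 and 63.3 FPKM in wild-type. Its mean was 3.53-fold higher, with a difference of 1.86 (SE 0.33; limma, adjusted p = 0.041). Irf9, the DNA-binding subunit of ISGF3, was at 39.9 and 44.8 FPKM against 15.95 and 12.2 FPKM in wild-type. The groups were well separated, with a mean 3.01-fold higher and a difference of 1.54 (SE 0.23; limma, adjusted p = 0.034). Irf2, which competes with IRF1 for the same sites, was at 18.9 and 15.1 FPKM against 4.87 and 9.69 FPKM in wild-type, and did not pass (difference 1.18, 95% interval 0.10 to 2.25; limma, adjusted p = 0.11). Irf7, the master regulator of type I interferon genes, differed by 0.58 and Stat2, the ISGF3 subunit, by 0.53, and neither passed (adjusted p = 0.16 and 0.22, limma).

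Of the sensor genes none passed, and they divided evenly. Ddx58, which encodes the RNA sensor RIG-I, was at 7.19 and 6.14 FPKM against 3.45 and 3.00 FPKM in wild-type. The pairs were close and apart from each other, with a mean 2.07-fold higher and a difference of 0.86 (SE 0.22; limma, adjusted p = 0.074). Zbp1, a sensor of Z-form nucleic acids, was at 41.6 and 38.1 FPKM against 23.4 and 30.2 FPKM in wild-type (adjusted p = 0.14). The other RNA sensors lay on the lower side: Ifih1, the gene of MDA5, was at 1.02 and 0.838 FPKM against 4.57 and 1.23 FPKM in wild-type (adjusted p = 0.28). Dhx58, the gene of LGP2, was at 4.58 and 4.74 FPKM against 10.9 and 5.66 FPKM in wild-type (adjusted p = 0.26). In both of these the first wild-type library alone was far from the others.

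The OAS genes make or resemble enzymes that switch on the antiviral nuclease RNase L. Their summed level was 23.2 and 23.9 FPKM in the libraries labelled knockout, against 63.7 and 51.6 FPKM in wild-type. Oasl1, a mouse OAS-like protein that restrains translation of Irf7, was at 5.88 and 6.49 FPKM against 22.9 and 29.5 FPKM in wild-type. No library overlapped, and the mean fell to 0.236 of wild-type with a difference of -1.91 (SE 0.23; limma, adjusted p = 0.029). Oas1a differed by -0.79, Oasl2 by -0.76 and Oas2 by -0.38, and none of these passed (limma, adjusted p = 0.15, 0.15 and 0.70). Oas2 had 1.94 and 2.09 FPKM in the libraries labelled knockout, between the wild-type libraries at 6.21 and 1.13 FPKM, so that its wild-type pair differed more than the groups did. Oas1a has close copies such as Oas1g, and reads can be split between them.

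Of the 10 antiviral effector genes 1 fell (beside 6.99% of all tested genes lower), 9 did not pass and 9 had a negative difference. Ifitm3, a membrane protein that blocks viral entry, had 165 and 169 FPKM in the libraries labelled knockout, against 325 and 384 FPKM in the wild-type libraries. Both pairs were tight, the mean fell to 0.471 of wild-type, and the difference was -1.08 (SE 0.16; limma, adjusted p = 0.034). Rsad2, the gene of viperin, was at 4.21 and 3.31 FPKM against 26.8 and 11.1 FPKM in wild-type. The groups did not overlap, but the wild-type spread was wide (difference -1.95, 95% interval -3.31 to -0.59; limma, adjusted p = 0.069). Cmpk2, a mitochondrial nucleotide kinase gene next to Rsad2 in the genome, was at 1.65 and 1.91 FPKM against 10.4 and 3.35 FPKM in wild-type (adjusted p = 0.16). Ifit1, whose protein binds viral RNA caps, was at 5.92 and 6.29 FPKM against 31.0 and 7.80 FPKM in wild-type (adjusted p = 0.26), a gap set mostly by the first wild-type library. Mx2 was at 1.88 and 3.35 FPKM, inside the range of the wild-type libraries at 7.88 and 0.802 FPKM (adjusted p = 0.90). Bst2, the gene of tetherin, was at 89.0 and 87.5 FPKM against 99.96 and 125 FPKM in wild-type (adjusted p = 0.26). Ifit2, Ifit3 and Rtp4 differed by -0.46 to -0.28 and Mx1 by 0.33, and none passed.

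Isg15, a ubiquitin-like protein that is joined to other proteins after interferon, had 30.5 and 27.3 FPKM in the libraries labelled knockout, against 59.6 and 46.9 FPKM in wild-type. The groups were apart, with a difference of -0.85 (95% interval -1.46 to -0.25; limma, adjusted p = 0.071). Usp18, the protease that removes ISG15 and damps the type I receptor, was at 9.64 and 8.45 FPKM against 10.4 and 9.82 FPKM, with a difference of -0.15 (95% interval -0.73 to 0.43; adjusted p = 0.63). Ifi44, an induced gene with no settled role, had the lowest ratio to wild-type of the 37 genes, at 0.680 and 0.660 FPKM against 8.87 and 3.68 FPKM in wild-type. It missed the threshold (difference -2.02, SE 0.44; limma, adjusted p = 0.056). Ifi44 reached 1 FPKM only in the wild-type libraries, so it entered the test through the group where it was high. Ifi35 and Xaf1 differed by 0.63 and 0.16, and neither passed.

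The GTPase genes, of which the immunity-related and guanylate-binding families attack the vacuoles of intracellular microbes, differed among themselves. Igtp, also called Irgm3, had 138 and 131 FPKM in the libraries labelled knockout, against 21.8 and 17.8 FPKM in the wild-type libraries. Both pairs were tight, and Igtp had the lowest p of the 37 genes, with a mean 6.79-fold higher and a difference of 2.71 (SE 0.19; limma, adjusted p = 0.024). Its relative Irgm1 was at 27.7 and 24.4 FPKM against 18.8 and 18.9 FPKM (difference 0.44; adjusted p = 0.17). Gbp3 overlapped, at 13.3 and 14.5 FPKM against 6.56 and 15.6 FPKM in wild-type (adjusted p = 0.54). Gbp2 was at 20.2 and 19.8 FPKM against 21.5 and 30.2 FPKM in wild-type (adjusted p = 0.37). Igtp shares 162 bases of exon with the next gene, Irgm2, on the same strand in GENCODE M21, and Irf9 shares 123 bases with Rnf31. Irf1 and Oasl1 overlap genes on the opposite strand by 100 and 38 bases. Reads in such stretches cannot be assigned to one gene where strand and counting rule are not given.

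**Figure D3:**
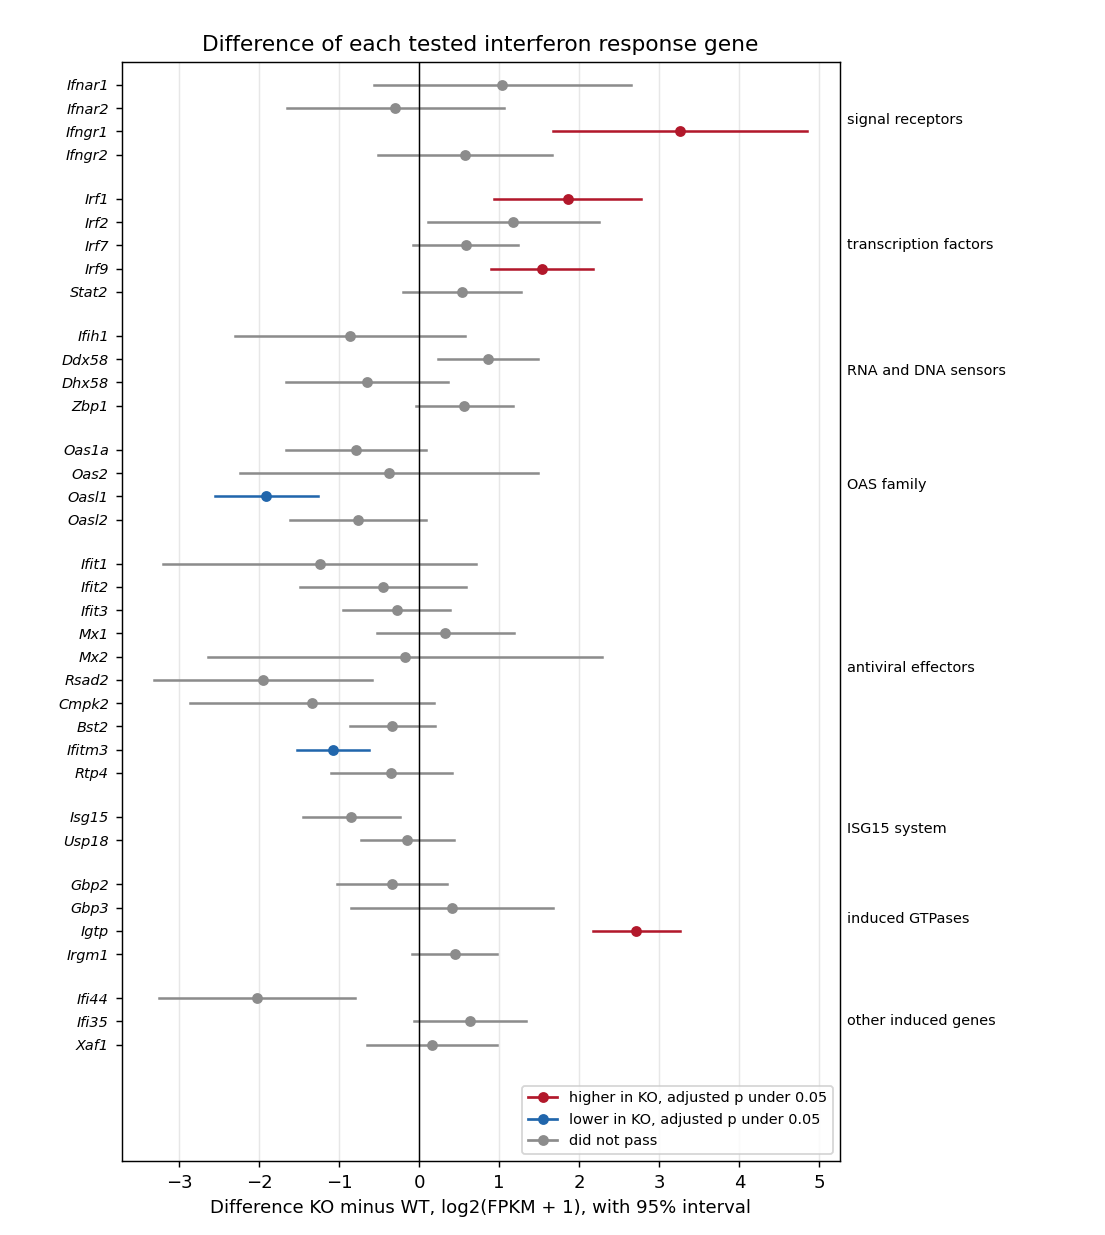
Difference (KO minus WT, log2(FPKM + 1)) of each of the 36 tested interferon response genes with its 95% interval from limma, where KO are the libraries labelled knockout and WT the wild-type libraries. Red genes (Ifngr1, Irf1, Irf9 and Igtp) rose, blue genes (Oasl1 and Ifitm3) fell, and grey genes did not pass.

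The wild-type pair was less alike than the pair labelled knockout. The contrast was slightly larger in these genes than over all, which was not tested. The median absolute log2 gap within a pair was 0.13 for the libraries labelled knockout and 0.62 for wild-type over the 36 genes, beside 0.12 and 0.50 over all tested genes. In 11 of the 36 genes the wild-type libraries differed by more than 1 on the log2 scale (30.6%, beside 22.4% of all tested genes). Of these 11, 7 were higher in the first wild-type library, which had the high epithelial sum: Mx2 (by 2.30), Ifit1 (1.86), Oas2 (1.76), Cmpk2 (1.39), Ifih1 (1.32), Rsad2 (1.20) and Ifi44 (1.08). They are type I targets and antiviral effectors. The other 4, Ifngr1 (-1.51), Ifnar1 (-1.50), Ifnar2 (-1.27) and Gbp3 (-1.13), were higher in the second wild-type library. These are 3 receptor genes and a GTPase gene.

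Set against each wild-type library in turn, the 6 called genes kept their direction. That was fixed in advance, because the groups did not overlap in any of them, so it adds nothing to the calls. Against the first and the second wild-type library the mean of the libraries labelled knockout differed by 4.02 and 2.50 for Ifngr1, by 2.26 and 1.45 for Irf1, by 1.35 and 1.72 for Irf9 and by 2.57 and 2.85 for Igtp. For Oasl1 the values were -1.73 and -2.09, and for Ifitm3 -0.96 and -1.20. Ifnar2 (0.34 and -0.93), Oas2 (-1.26 and 0.50), Mx2 (-1.33 and 0.97), Gbp3 (0.98 and -0.16) and Xaf1 (-0.10 and 0.42) had opposite signs against the first and the second. All 6 calls ended when either library labelled knockout was left out (adjusted p from 0.36 to 0.41, limma, with the lone library taken to vary like the wild-type pair), when 0 of the 11138 genes passed and 5 or 6 of the interferon response genes had an unadjusted p under 0.05.

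**Figure D4:**
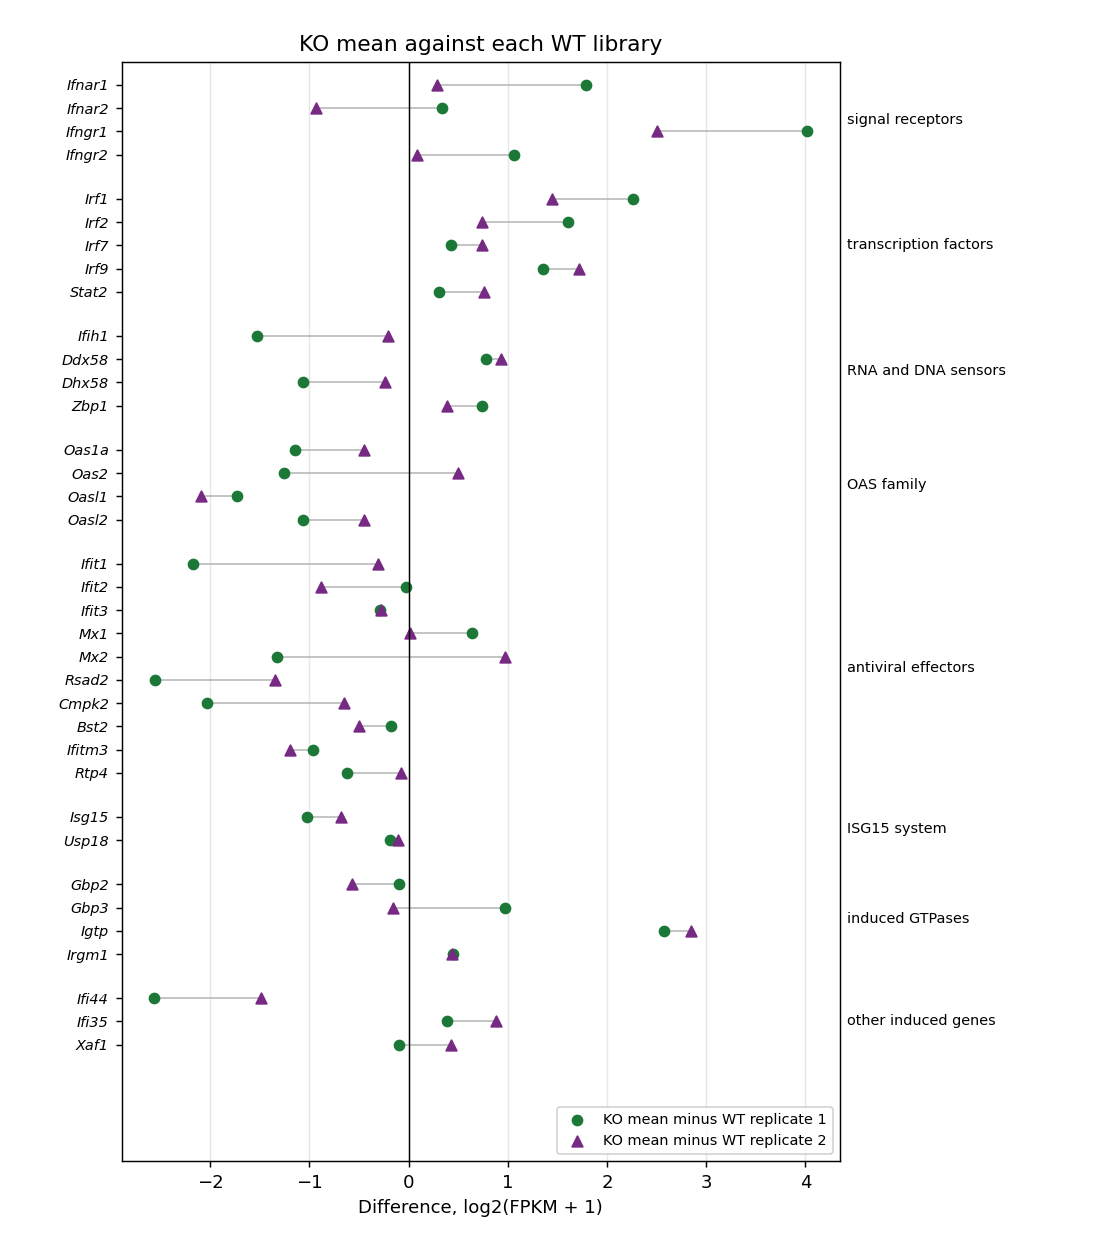
Mean of the 2 libraries labelled knockout (KO) minus each wild-type (WT) library, as a log2(FPKM + 1) difference, for the 36 tested interferon response genes. Grey lines join the values against WT replicate 1 (green circles) and WT replicate 2 (purple triangles); they cross 0 for Ifnar2, Oas2, Mx2, Gbp3 and Xaf1.

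Other genes of the pathway, 111 with a row and not picked for how they moved in the fit made here, were read beside the 37. Of the 84 that were tested, 14 rose and 2 fell, with a median difference of 0.95. That is 19% called, beside 16.5% of all tested genes, and the lists too were chosen with results of these data known, so nothing particular to them is read from these counts. Among the ligands, Ifng, the type II interferon gene of T and NK cells, had 20.7 and 23.8 FPKM in the libraries labelled knockout, against 1.02 and 1.46 FPKM in wild-type. It was 18.0-fold higher, with a difference of 3.38 (SE 0.24; limma, adjusted p = 0.024), in the libraries where the T and NK cell sums were high. Type I ligands were barely read: Ifnb1 was at 0.371 and 0.206 FPKM against 0 and 1.05 FPKM in wild-type, and between 17 and 19 of the 21 ligand genes were listed at 0 in each library. Ifnlr1, the specific chain of the type III receptor, was at 0.209 and 0.214 FPKM against 1.26 and 0.623 FPKM and was not tested. Il10rb, its shared chain, was at 33.5 and 32.1 FPKM against 21.95 and 86.8 FPKM in wild-type (adjusted p = 0.70).

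Of 5 genes for kinases and STAT proteins 2 rose (beside 9.51% of all tested genes higher) and all had a positive difference. Jak2, a kinase bound to the type II receptor, was at 21.3 and 23.5 FPKM against 3.53 and 6.73 FPKM in wild-type (difference 1.98, SE 0.34; limma, adjusted p = 0.040). Stat3, a factor that many cytokines activate, was at 126.0 and 126.5 FPKM against 58.9 and 41.8 FPKM in wild-type (difference 1.33; limma, adjusted p = 0.041). Jak1 was at 119 and 115 FPKM against 54.9 and 31.4 FPKM in wild-type (adjusted p = 0.057), and Tyk2, a kinase of the type I receptor, at 6.24 and 6.05 FPKM against 4.25 and 6.26 FPKM in wild-type (adjusted p = 0.59). Of 12 tested genes for sensing upstream of interferon 1 fell (beside 6.99% of all tested genes lower) and 11 did not pass. The 1 was Tlr3, the endosomal sensor of double-stranded RNA, at 0.223 and 0.132 FPKM against 1.31 and 1.45 FPKM in wild-type. Tlr3 reached 1 FPKM only in the wild-type libraries, so it entered the test through the group where it was high. Irf3 was among those 11, with a difference of 1.07 (adjusted p = 0.058). Of 7 negative regulators 2 rose (beside 9.51% of all tested genes higher). They were Socs1, the feedback inhibitor of JAK kinases (difference 3.05, SE 0.47), and Samhd1, a dNTP hydrolase (2.24, SE 0.35; limma, adjusted p = 0.036 for each).

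The type II induced list held 7 genes that rose and 1 that fell of 19 tested (42.1% called, beside 16.5% of all tested genes), with a median difference of 1.46. Ifi47, an immunity-related GTPase, had 80.7 and 85.6 FPKM in the libraries labelled knockout, against 9.83 and 13.8 FPKM in wild-type (difference 2.73; limma, adjusted p = 0.024). The guanylate-binding protein genes Gbp8, Gbp5 and Gbp10 rose by 2.65, 1.61 and 1.54 (limma, adjusted p = 0.029, 0.029 and 0.033), although near copies of these genes can share reads. Gbp6, Gbp11 and Irgm2 also rose. Gbp5 and Gbp11 reached 1 FPKM only in the libraries labelled knockout, so they entered the test through the group where they were high. Iigp1, another immunity-related GTPase, fell to 4.64 and 5.14 FPKM, against 15.9 and 23.8 FPKM in wild-type (difference -1.80; limma, adjusted p = 0.036). Cxcl9 and Cxcl10 were also below wild-type in both libraries labelled knockout, and did not pass (limma, adjusted p = 0.20 and 0.19). Of the 19 tested genes, 15 were above wild-type in this way (78.9%, beside 39.3% of all tested genes) and 3 below (15.8%, beside 32.1%). Of 39 tested genes in the list of other type I targets 2 rose, Samd9l (1.67) and Slfn1 (3.16), none fell and 37 did not pass (5.13% called, beside 16.5% of all tested genes), with a median difference of 0.66. Both libraries labelled knockout lay above both wild-type libraries for 25 of them (64.1%, beside 39.3% of all tested genes). Both lay below for 9 (23.1%, beside 32.1%).

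**Figure D5:**
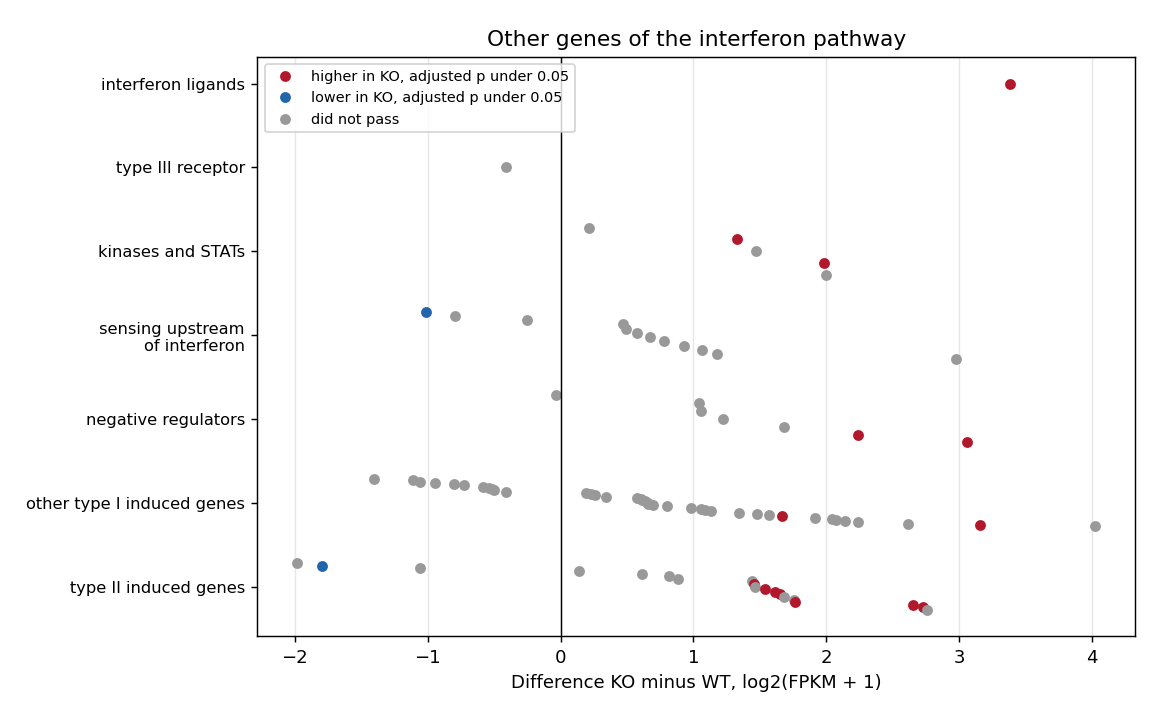
Difference (KO minus WT, log2(FPKM + 1)) of the 84 tested genes in the other interferon pathway lists, where KO are the libraries labelled knockout and WT the wild-type libraries, with 1 point per gene spread vertically within its list. The type II induced list has 7 red points (rose) and 1 blue point (fell), and the single tested ligand is Ifng at 3.38.

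Promoters of the 37 genes were read for the pair of elements through which interferon acts, to set sequence beside direction. RefSeq windows of the GRCm38.p6 build, from 250 bases before to 50 after a gene's start, were at hand for 30 of the 37 genes, and the others (Oas2, Mx1, Mx2, Usp18, Dhx58, Rtp4 and Zbp1) were not read. The deposited values were made on mm9, so these coordinates belong to the sequence alone. The response element was searched as GAAA, any 2 bases and again GAAA, and the gamma-activated site as TTCNNNGAA, each on both strands. The first was in a window of 16 of the 30 genes (53.3%, beside 3.99% of 27025 genes) and the second in 10 (33.3%, beside 9.55%). All 4 GTPase genes with a window held the response element, as did 5 of 7 antiviral effector genes, 2 of 5 transcription factor genes and none of the 4 receptor genes. The gamma-activated site was in 1 of these 4 GTPase genes, 3 of 7 antiviral effector genes, 2 of 5 transcription factor genes and 2 of 4 receptor genes. Of the 4 genes that rose, Igtp held both elements, Irf1 a gamma-activated site, and Ifngr1 and Irf9 neither. Of the genes that fell, Ifitm3 held both and Oasl1 neither. With 4 genes that rose and 2 that fell, the counts are too small to say whether the elements go with direction. Of the 23 genes with a window that did not pass, 13 also held the response element. A match is a run of letters and no measure of binding.

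Igtp is shown with its neighbour Irgm2 and with Tgtp1, another gene of chromosome 11, both picked after the match was seen, because in all of them the response element starts 11 bases after the start of the gamma-activated site. Only 5 genes in the whole table of windows have that spacing (also Tgtp2 and Gm12185), and all lie on chromosome 11. Igtp, Irgm2, Tgtp1 and Tgtp2 belong to the immunity-related GTPase family, so they are not independent cases. Irgm2 had 10.3 and 8.71 FPKM in the libraries labelled knockout, against 1.62 and 3.24 FPKM in wild-type (difference 1.65; limma, adjusted p = 0.0495), and Tgtp1, a near copy of Tgtp2, had 24.6 and 26.9 FPKM against 4.50 and 11.6 FPKM in wild-type (adjusted p = 0.084). Capitals mark the gamma-activated site and then the response element, with 2 bases between them.
Igtp, chr11:58199456-58199555, plus strand: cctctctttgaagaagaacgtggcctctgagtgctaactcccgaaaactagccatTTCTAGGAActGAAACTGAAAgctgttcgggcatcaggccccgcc
Irgm2, chr11:58214847-58214946, plus strand: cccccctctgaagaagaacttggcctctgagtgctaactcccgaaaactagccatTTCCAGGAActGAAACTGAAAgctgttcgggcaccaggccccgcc
Tgtp1, chr11:48992290-48992389, minus strand: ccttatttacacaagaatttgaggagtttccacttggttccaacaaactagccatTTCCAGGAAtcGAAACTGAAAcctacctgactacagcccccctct

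Irf1, which rose, is shown for its lone gamma-activated site (capitals), which has no response element near it. The window is the first of its 2 RefSeq starts.
Irf1, chr11:53769879-53769978, plus strand: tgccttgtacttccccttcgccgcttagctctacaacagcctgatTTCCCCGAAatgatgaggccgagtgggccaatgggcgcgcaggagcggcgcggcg

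Isg15, Ifit1, Rsad2 and Ifitm3, all lower in both libraries labelled knockout, are shown for their response elements (capitals). Of these only Ifitm3 passed. The element is not particular to the lower side: Ddx58, Irgm1, Stat2 and Irf2, not shown, also held it and were above wild-type in both libraries labelled knockout. In Isg15 the run in capitals is 3 overlapping matches, in Ifit1 there are 2 on the opposite strand, and in Rsad2 there is 1. In Ifitm3, of which 29 bases just after the start are shown, the second match overlaps a gamma-activated site, and all are in capitals.
Isg15, chr4:156200844-156200943, minus strand: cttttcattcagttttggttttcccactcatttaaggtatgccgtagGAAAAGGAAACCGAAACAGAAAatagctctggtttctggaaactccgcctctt
Ifit1, chr19:34640749-34640848, plus strand: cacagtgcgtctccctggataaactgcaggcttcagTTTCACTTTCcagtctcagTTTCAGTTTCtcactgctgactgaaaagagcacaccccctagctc
Rsad2, chr12:26456518-26456617, minus strand: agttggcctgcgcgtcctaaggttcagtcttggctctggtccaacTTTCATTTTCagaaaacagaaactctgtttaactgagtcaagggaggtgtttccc
Ifitm3, chr7:141010715-141010743, minus strand: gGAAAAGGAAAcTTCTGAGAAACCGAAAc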

How the data were processed

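RNA of 4 libraries was sequenced after a low-input Clontech SMARTer v4 preparation, per the labels' protocols. Groups were taken from the sample titles. The deposited table gives 1 FPKM value per gene and library. Its header names no unit, so FPKM was read from the values: not whole, with column totals of 401786 and 402946 in the libraries labelled knockout and 402436 and 449838 in wild-type. The submitters' processing notes name the build mm9; the aligner, counter, annotation and strandedness are not given there or elsewhere in the sources.

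After 92 spike-in rows (all 0) were left out, the 11138 genes reaching 1 FPKM in 2 or more libraries entered a single limma fit (version 3.58.1, R 4.3.3) of log2(FPKM + 1) on genotype alone, its prior variance trended and robust, and p-values were adjusted over all of these genes by Benjamini-Hochberg. The pseudocount of 1 understates changes of low genes. Simulated data were used to test the fit. With 2 libraries a group an exact permutation test cannot go below p = 0.333 (two-sided), so every p-value here depends on the model over genes. No read counts were rebuilt, and depth came from values under 0.1 FPKM that stood in whole-number ratios within 0.2%.

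The genes, roles and lists were chosen with earlier results of these data known. Every library's value is given for called genes, the 12 of lowest p, the 4 receptors and genes whose wild-type libraries differed over 4-fold with at least 5 FPKM in one; of the pathway lists, the 12 called genes of lowest p and a set of signalling genes are named, some by their difference alone. Gbp6, Gbp11, Stat3, Irgm2 and Tgtp1 fall outside that rule and were picked after their values were seen, as were the other genes given in passing. Of 116 pathway symbols 111 had a row, counting older names. The values of 1 gene of the pathway lists are not reported here.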

Additional observations from a re-analysis of the deposited data

How the results depend on the processing

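The 6 called genes kept their direction in all 12 alternatives. This sets them little apart, since at least 33 of the 36 tested genes did so in each, or all 29 at the 5 FPKM filter. Their calls held in the 6 alternatives that changed the pseudocount to 0.1, the filter to 5 FPKM, the scaling (median centring, quantile normalization, common total) or the prior. At a pseudocount of 0.1 Ifi44 also passed. Without a filter on low values, over all genes 2 passed higher and 0 lower, and 0 and 0 of the interferon response genes, of which 11 had an unadjusted p under 0.05 (5063 of all genes). The median difference of the interferon response genes, -0.23, was 0.16 at the 5 FPKM filter, where 29 of them were tested and all tested genes had a median of 0.19. With the replicate block 346 genes passed higher and 155 lower, and 2 (Ifngr1 and Igtp) and 0 of the interferon response genes. The labels do not pair the libraries by number, and same-numbered libraries' deviations correlated at -0.06, so they share only a number. Leaving out 1 library gave 0 to 4269 genes higher and 0 to 3643 lower, and 0 to 15 and 0 to 14 of the interferon response genes. All 6 calls held without either wild-type library, when the spread came from the pair labelled knockout alone, and all ended without either library labelled knockout. Stat3, Gbp6, Gbp11 and Irgm2 lost their calls in 5 to 8 of the alternatives each. Depth limits Oas3, Ifnb1 and the other ligand genes near 0. Ifi44, Tlr3, Gbp5 and Gbp11 passed the filter through 1 group alone.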
